A study of Mus musculus with 12 samples.

Results

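Oxidative phosphorylation (OXPHOS) is carried out by 5 protein complexes of the inner mitochondrial membrane, and the genes described here are the nuclear genes that encode their subunits. They were chosen by symbol, as every row of the table that begins with Nduf and a subunit letter and number, Cox4 to Cox8, Uqcr, Atp5 or Sdha to Sdhd, leaving out rows marked as pseudogenes by -ps. The rule uses no measured value. It took 92 of 54227 rows: 40 named for complex I, 8 for complex II, 8 for complex III, 19 for complex IV and 17 for complex V. Of these, 4 (Sdhaf1 to Sdhaf4) are assembly factors of complex II and not subunits, which leaves 88. Another 4 symbols (Cox6c2, Ndufa11b, Ndufb4c and Ndufs6b) are annotated as processed pseudogenes in GENCODE M21. The samples were liver cells of C57Bl/6 mice carrying the Sox9EGFP transgene, in which green fluorescence reports Sox9 activity, digested after a 16 h fast. The sorter split them into 4 populations of rising fluorescence, here neg, sub, low and high, each with 3 libraries of 12000 cells, and every population came from animals with the same transgene, strain and fast. Gates on fluorescence are not cell types, and the labels give no untreated or fed animals. The sample descriptions carry 3 tags that differ within a population and recur in all 4, in step with the replicate numbers, but the labels do not say whether they mark separate animals, so p-values measure the spread between these libraries, which may be technical.

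Complex I passes electrons from NADH to ubiquinone, complex II from succinate to ubiquinone, complex III from ubiquinol to cytochrome c, and complex IV from cytochrome c to oxygen. Complexes I, III and IV pump protons, and complex V, the ATP synthase, uses the gradient to make ATP. Most subunits are nuclear genes with short messenger RNAs present in nearly all cells, a few core subunits are encoded by the mitochondrial genome, and complex II is nuclear throughout. In liver the pathway supplies ATP for gluconeogenesis and urea synthesis, and hepatocytes are rich in mitochondria.

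Many OXPHOS promoters are known to hold sites for the factors NRF1, GABPA (an ETS factor) and YY1, so the letters of these motifs were looked for on both strands in RefSeq promoters of GRCm38.p6, from 250 bases before to 50 after each start. A promoter was found for 72 of the 92 members. A gene was counted if any of its promoters held the letters. The NRF1 letters CGCATGCG, which read the same on both strands, lay in 9 of the 72 (12.5%) and in 2.07% of all 27025 genes with a promoter. The GABPA letters CCGGAAG, or CTTCCGG on the other strand, lay in 20 (27.8%) against 9.93% of all. The YY1 letters AAGATGGC, or GCCATCTT, lay in 10 (13.9%) against 3.19%; this motif can overlap the GABPA motif by its first letters AAG. At least 1 of the 3 was in 33 members (45.8%) and in 14.2% of all genes with a promoter. One member with each motif is printed with its match in capitals, and Cox8b, a heart and muscle isoform with none of them, for contrast. Uqcrc1 is at chr9:108936398-108936697 on the plus strand, Atp5h at chr11:115419870-115420169, Ndufa9 at chr6:126849095-126849394 and Cox8b at chr7:140900397-140900696, these 3 on the minus strand, all written 5′ to 3′ along the gene.
Uqcrc1: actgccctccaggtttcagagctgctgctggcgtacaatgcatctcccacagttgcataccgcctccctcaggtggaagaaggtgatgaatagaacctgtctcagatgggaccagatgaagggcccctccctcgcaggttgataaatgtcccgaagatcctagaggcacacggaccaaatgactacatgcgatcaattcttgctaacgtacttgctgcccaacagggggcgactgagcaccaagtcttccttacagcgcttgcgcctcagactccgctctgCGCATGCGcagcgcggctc
Atp5h: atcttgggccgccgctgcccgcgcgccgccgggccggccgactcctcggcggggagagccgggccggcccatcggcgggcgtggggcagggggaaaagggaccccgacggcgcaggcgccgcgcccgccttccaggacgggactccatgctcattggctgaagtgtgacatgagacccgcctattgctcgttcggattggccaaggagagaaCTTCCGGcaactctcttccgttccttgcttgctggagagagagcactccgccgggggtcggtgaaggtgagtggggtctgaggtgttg
Ndufa9: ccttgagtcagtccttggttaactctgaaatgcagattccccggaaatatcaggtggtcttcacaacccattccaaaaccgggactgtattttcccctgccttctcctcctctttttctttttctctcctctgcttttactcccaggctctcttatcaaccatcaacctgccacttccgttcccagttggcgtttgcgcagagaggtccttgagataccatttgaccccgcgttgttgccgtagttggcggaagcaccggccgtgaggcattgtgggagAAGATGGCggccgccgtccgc
Cox8b: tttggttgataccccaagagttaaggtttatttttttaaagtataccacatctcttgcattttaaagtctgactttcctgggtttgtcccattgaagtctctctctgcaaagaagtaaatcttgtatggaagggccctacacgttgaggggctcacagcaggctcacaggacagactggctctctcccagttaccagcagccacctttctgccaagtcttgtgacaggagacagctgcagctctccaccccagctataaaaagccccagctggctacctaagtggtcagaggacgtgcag
By how often a member with a promoter was seen, any of the motifs was in 3 of the 7 members above 0 in 11 or 12 libraries. The same held for 28 of the 61 members above 0 in 1 to 10 libraries and for 2 of the 4 at 0 throughout. A match is a description of letters and not of binding.

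Values are normalised counts, deposited as 1 table. Each column moved in whole steps of its lowest nonzero entry (100% of entries in all 12 columns, within 0.0001 reads), so 1 read was worth 0.691 to 1.22 units and the libraries held 8775387 to 15535588 reads. Between 9039 and 12687 genes were above 0 per library. Sox9 itself had normalised counts of 0.691, 0 and 0 in neg, 6653, 4237 and 3707 in sub, 8838, 10313 and 17140 in low and 11794, 13969 and 13497 in high, so all 9 libraries of the fluorescent gates were above neg. The populations differed in cell makeup. Over 12 biliary markers the summed normalised count was 166 to 687 in neg, 21652 to 36845 in sub, 70651 to 97667 in low and 65844 to 72727 in high. Over 10 endothelial markers it was 144833 to 197114 in neg, 38178 to 55677 in sub, 964 to 2858 in low and 631 to 1543 in high. Over 14 stellate and mural markers it was 21818 to 42796, 30421 to 46423, 635 to 3070 and 911 to 2184, and over 12 hepatocyte markers 395 to 1003, 4621 to 7840, 13987 to 21610 and 17170 to 20770, in the same order. The 12 hepatocyte markers did not all move together. Against neg, 10 were higher and 2 lower in sub, 8 higher and 3 lower in low, and 7 higher and 3 lower in high. In high, 4 of them were at 0 in all libraries. Over 10 lymphocyte markers the sum was 0.691 to 1108 in neg and 0 in all sub libraries. It was 0 to 105 in low and 0 to 104 in high. The sum of 10 Kupffer and macrophage markers was 0 to 576 in neg and 421 to 575 in sub. In low it was 814 to 1220 and in high 519 to 1556.

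OXPHOS members were seen unevenly between libraries of 1 population. Of the 92 members, 84 had reads in at least 1 library and 8 (Atp5e, Cox4i2, Cox6a2, Cox7b2, Cox8b, Cox8c, Ndufs6b and Sdhaf3) were at 0 in all 12. The number of members above 0 was 49, 27 and 30 in neg, 30, 30 and 32 in sub, 55, 27 and 32 in low and 60, 49 and 26 in high, so the sub libraries were close to each other while those of neg, low and high were spread widely. Replicate 1 had the most genes above 0 in all 4 populations (10691 to 12687) and the most members in neg, low and high; its part in the spread was not tested. Only 6 members (Atp5a1, Atp5b, Atp5l, Cox6c, Sdha and Uqcrc1) were above 0 in every library, and 13 were above 0 in a single one. Counted as 92 members in 4 populations, 124 of 368 cases (33.7%) had reads in no library, 97 (26.4%) in 1, 91 (24.7%) in 2 and 56 (15.2%) in all 3. Among the 69 members that passed a mean of at least 10, which were 30 of complex I, 6 of II, 7 of III, 11 of IV and 15 of V, 55 of 276 cases (19.9%) had reads in all 3 libraries, against 38.7% over all 16128 genes that passed. In 125 of these 276 cases (45.3%) 1 library was at 0 and another of the same population above 100, against 30.9% over all genes. In bulk samples like these, fewer cells of a type and less RNA per cell cannot be told apart.

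**Figure D1:**
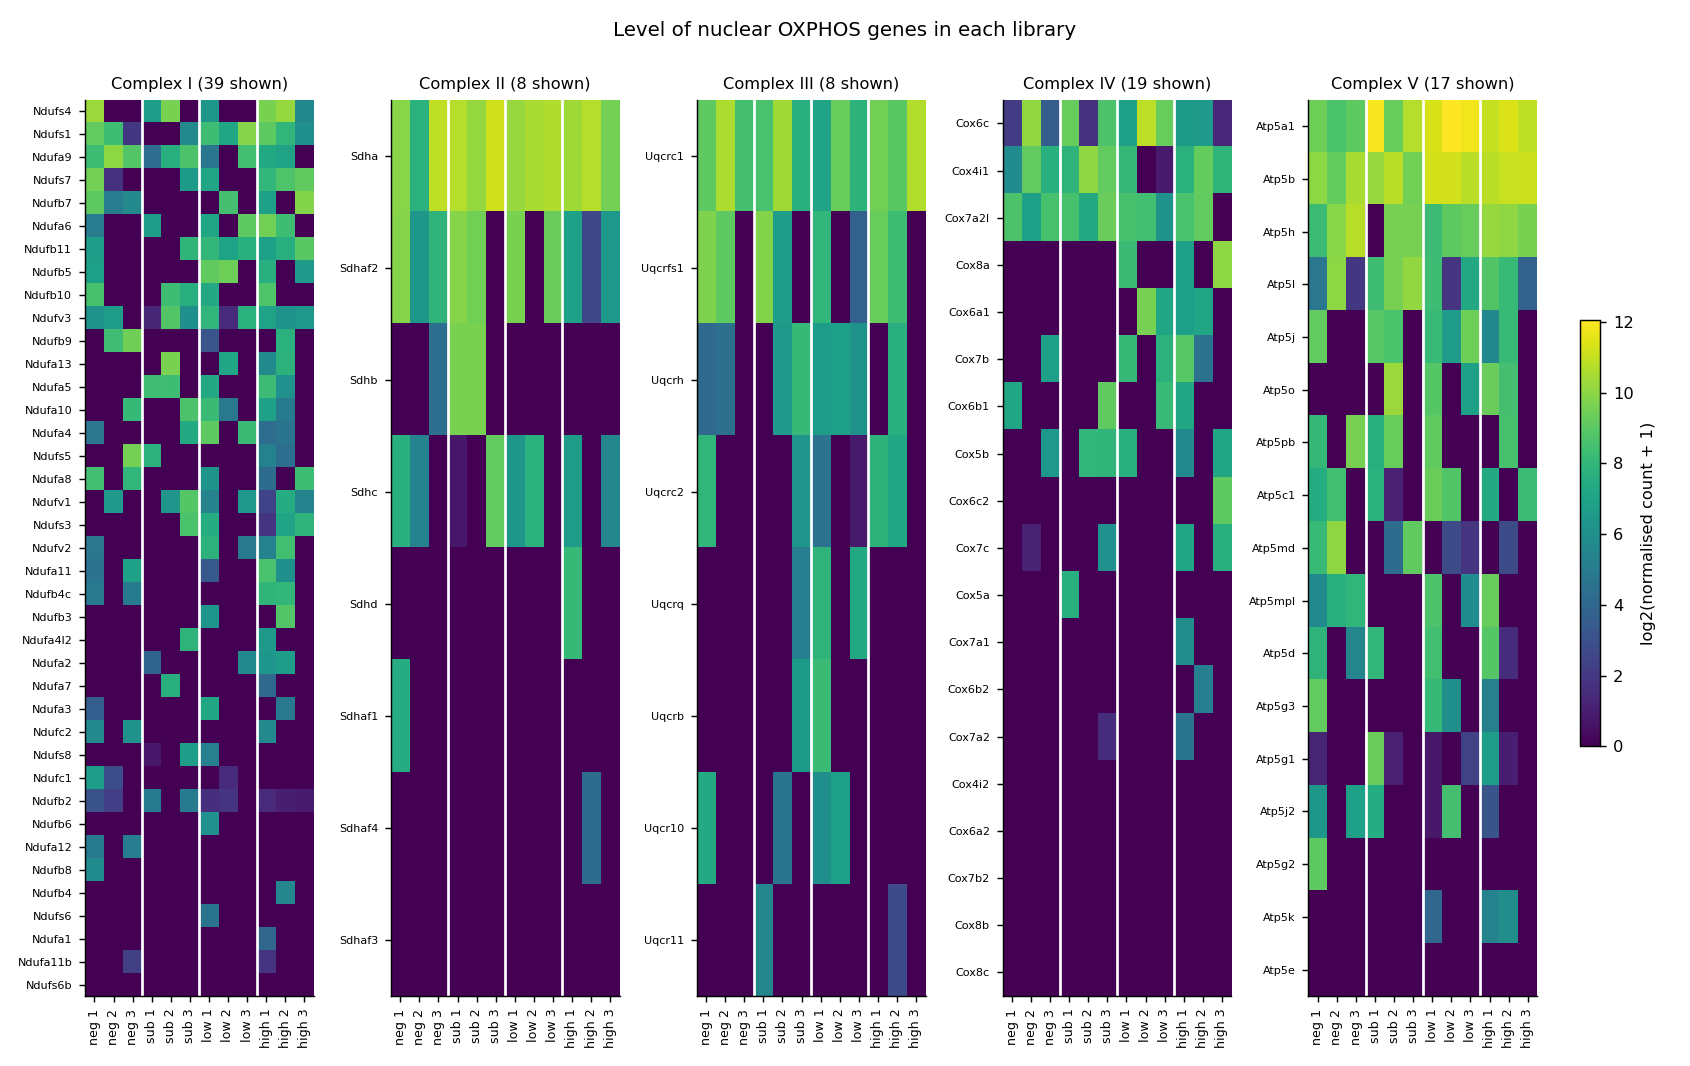
Normalised counts of members (rows, grouped by complex) in each of the 12 libraries (columns, grouped by population), on a log colour scale. Cells at 0 lie next to cells above 100 within 1 population, and only 6 rows are above 0 in every library.

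Short transcripts were seen least often. Across the 92 members the number of libraries above 0 followed the length of the longest annotated transcript with a Spearman correlation of 0.570, a description across genes that share the same 12 libraries. With the longest protein-coding transcript the value was 0.470 over 88 members, and the 31 members under 700 bases by that length had a median of 3 libraries and a highest of 12 (Atp5l). By the longest annotated transcript, the 26 members under 700 bases were above 0 in a median of 2 libraries and at most 6, the 36 members of 700 to 1500 bases in a median of 5 and at most 11, and the 30 longer ones in a median of 7 and up to 12. Cox7a2, with an annotated length of 659 bases, was above 0 in sub 3 and high 1 alone, at 1.99 and 24.2. Sdha, with 2900 bases, was at or above 205 in every library. Genes that are no members showed the same order: among those that passed the filter the median was 3, 4 and 8 libraries in the 3 length classes, and for members that passed it was 4, 5 and 8. Among genes over 1500 bases, 25% of the 24 members that passed and 22.5% of all 13399 genes were above 0 in every library. From 700 to 1500 bases this was 0 of 31 members and 5.70% of genes, and under 700 bases 0 of 12 members and 7.82% of genes. Members are short as a group, and their median mean count was 98.2 against 153.6 over all genes that passed. The part of length in these gaps was not tested.

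**Figure D2:**
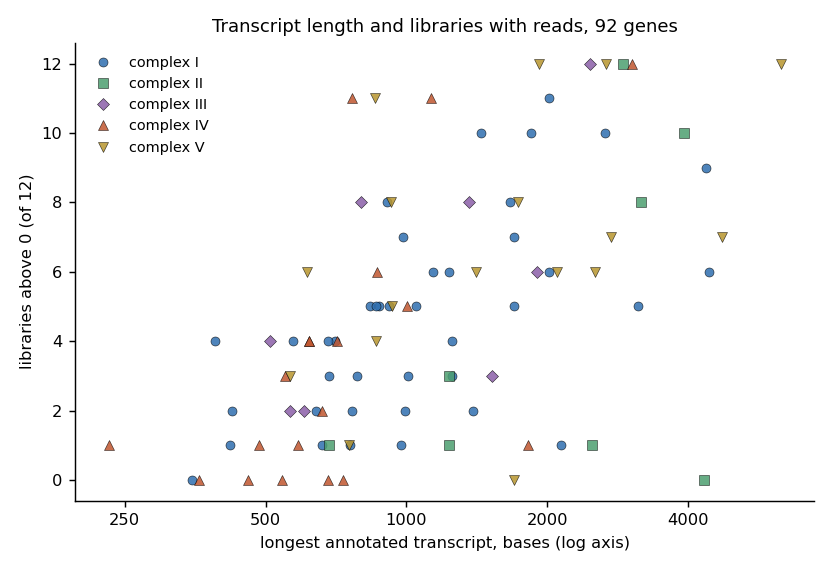
Length of the longest annotated transcript in bases (x axis, log scale) against the number of libraries, of 12, in which the member was above 0 (y axis), 1 point per member, by complex. Members under 700 bases reach at most 6 libraries, and those above 0 in all 12 are over 1500 bases by this length.

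Summed over all members, OXPHOS transcripts overlapped between the populations. The sums were 15363, 11046 and 12416 in neg, 14492, 15456 and 13751 in sub, 17719.6, 15747 and 14499.7 in low and 17679, 16682 and 12778 in high, which is 0.103 to 0.164% of each library's total; no population lay clear of another. A few members carried each sum: the 4 highest held 27.8 to 64.0% of it, and the highest was Atp5a1 in 6 of the 12 libraries, Atp5b or Sdha in 4, Ndufs4 in neg 1 and Uqcrc1 in neg 2. By complex, 24 of the 30 comparisons of 2 populations had overlapping sums. The 6 that did not overlap were complex II, higher in sub than in neg, low and high, complex III, higher in high than in low, and complex V, higher in low and in high than in neg. Among all single genes that passed the filter, 7.34 to 18.8% did not overlap, depending on the comparison. No such share was computed for sums of other genes. Comparisons that share libraries are not independent. Plain sums weigh long and abundant members most, and no test was run on them because the members were chosen with results known.

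**Figure D3:**
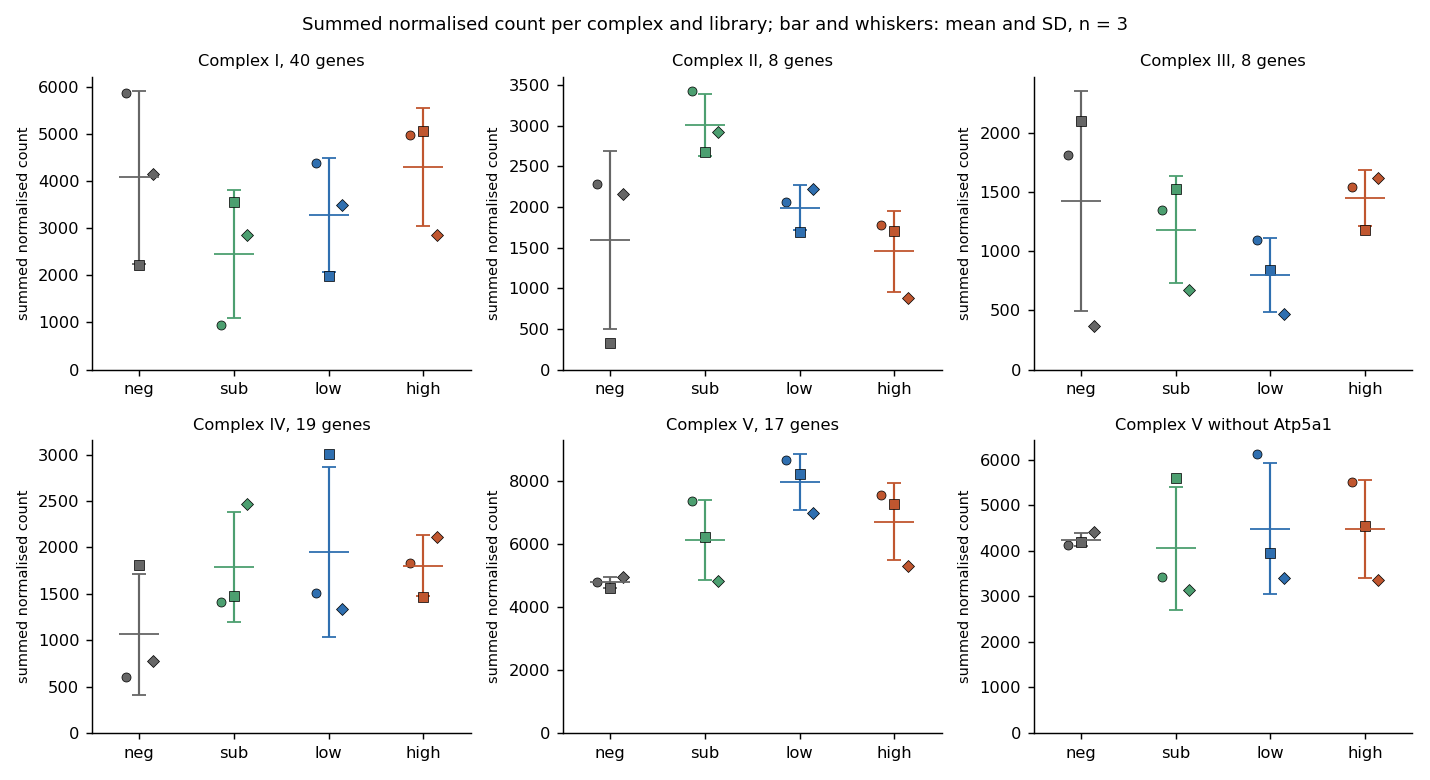
Summed normalised count per complex (panels) in the 4 populations, with 1 symbol per library (circle, square and diamond for replicates 1, 2 and 3) and the mean ± SD of 3 libraries. Complex II stands highest in sub at 3009 ± 385, complex V is lowest in neg at 4785 ± 181, complexes I and IV overlap in every comparison of these plain sums, and the last panel, complex V without Atp5a1, shows neg within the range of the other gates.

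Complex V makes ATP in a catalytic head of alpha and beta chains, inside which a central stalk turns. The mean ± SD of its sum over 3 libraries was 4785 ± 181 in neg, 6136 ± 1277 for sub, 7967 ± 879 in low and 6713 ± 1225 in high. The ratio of means was 1.67 ± 0.194 for low over neg and 1.40 ± 0.261 for high over neg. All libraries of low (6986 to 8684) and of high (5306 to 7546) lay above those of neg (4601 to 4963). Atp5a1 carried much of the difference. It gave 11.2% of the neg sum, 33.8% of the sub sum, 43.6% of the low sum and 33.3% of the high sum. Without it the sums were 4125, 4206 and 4421 in neg and 6121, 3946 and 3411 in low, which overlap, and the ratio was 1.06. High over neg was then 1.05. Atp5b also had a lower mean in neg (1035) than in low (2236) and high (2062), and sums without Atp5b were not computed. When libraries were scaled to equal totals, or members divided by the length of the longest annotated transcript, high no longer lay clear of neg, while low still did. For Atp5l that length is 6310 bases, against 544 for its longest protein-coding transcript. Its mean per kilobase is 58.9 by the first and 683 by the second, and it was at 1047 in neg 2. Sums by protein-coding length were not computed, so whether low stays clear of neg by that length was not tested.

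Atp5a1 encodes the alpha chain (ENSMUSG00000025428.15, chromosome 18, 77773729 to 77782869, plus strand, protein coding). It had normalised counts of 667, 395 and 543 in neg, 3933, 613 and 1684 in sub, 2563, 4285 and 3575 in low and 2034, 2733 and 1937 in high. Every low and every high library was above every neg library, and sub reached from close to neg to the level of low. It was the only member with a limma adjusted p under 0.05 in any of the 6 comparisons: low against neg differed by 2.70 ± 0.68 (log2 of the count plus 1, ± SE), adjusted p = 0.0255 with limma and Benjamini-Hochberg adjustment over 16128 genes. High against neg differed by 2.08 ± 0.68 with limma adjusted p = 0.0921, and sub against neg by 1.61 ± 0.68 with limma adjusted p = 0.429. For sub against neg the difference was 0.96 without sub 1 and 2.30 without sub 2, and DESeq2 called it (DESeq2 adjusted p = 0.0307). High against low was -0.62 with limma adjusted p = 1. The call for low against neg held in 18 of 24 alternatives (adjusted p 0.000609 to 0.0994 over limma, edgeR and DESeq2). It was lost when any 1 of the neg or low libraries was left out, with limma adjusted p = 0.0506, 0.0831 and 0.0669 without neg 1, 2 and 3 and 0.0567, 0.0994 and 0.0898 without low 1, 2 and 3. The call for high against neg, missing with all libraries, was made without sub 1 (limma adjusted p = 0.0388), without sub 2 (0.0270), in a fit of those populations alone (0.0476) and by DESeq2 (0.0154). The annotation places Haus1 over part of the gene on the other strand, and the use of strand in counting is not given in the sources used here.

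The beta chain gene Atp5b, which carries the catalytic sites (chromosome 10, 128083273 to 128090391, plus strand), stood in the same order without passing. It had 1030.1, 593 and 1483 in neg, 1179, 1820.4 and 713 in sub, 2481, 2437 and 1789 in low and 1792, 2131 and 2262 in high. Low and high lay above neg in every library. The difference was 1.19 ± 0.63 for low against neg (limma adjusted p = 0.368) and 1.08 ± 0.63 for high against neg (limma adjusted p = 0.427). Low and high against neg share the neg libraries, so these are not independent results.

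Atp5h, a peripheral stalk subunit, had 309.5, 958 and 1759.7 in neg, 0, 776 and 778 in sub, 304, 532 and 618 in low and 1159.5, 1051 and 787 in high, so high lay above sub and low. Atp5h has a near-identical annotated copy, Gm10250 (99.0% identity), with 408 in sub 1 and 79 in low 2, so its own 0 in sub 1 is uncertain. Atp5o, which joins the head to the peripheral stalk, was at 0 in all neg libraries, at 1227 in sub 2 alone, at 476, 0 and 117 in low and at 625, 364 and 0 in high. Atp5c1, the central stalk, had 177, 336 and 0 in neg, 207, 1.14 and 0 in sub, 664, 444 and 0 in low and 165, 0 and 306 in high. Both show a 0 beside values above 100 within 1 population. Atp5l, a membrane subunit, had 26.9, 1047 and 2.9 in neg, 318, 758 and 1086 in sub, 323, 2.55 and 155 in low and 446, 280.0 and 13.1 in high. Sub against neg differed by 3.72 ± 2.34 for Atp5l and by 3.42 ± 3.28 for Atp5o (limma adjusted p = 0.695 and 0.748). For Atp5o low and high against neg differed by 5.26 ± 3.28 and 5.93 ± 3.28 (limma adjusted p = 0.479 and 0.398), values that depend on the added count of 1. For Atp5l low against sub differed by -3.51 ± 2.34 (limma adjusted p = 0.687). Atp5j, a peripheral stalk subunit, had 279.8, 98.6 and 667 in low and 48.5, 278 and 0 in high (-3.47 ± 3.09 for high against low, limma adjusted p = 1). None of these passed with limma or edgeR. DESeq2 called Atp5o, at 0 in neg, higher in sub, low and high than in neg (DESeq2 adjusted p = 1.1e-08, 4.4e-08 and 1.3e-08). The c ring, which rotates as protons pass, is encoded by 3 genes for the same mature protein. Atp5g1 was at 633 in sub 1, 106 in high 1 and at most 4.11 elsewhere, Atp5g2 at 533 in neg 1 and 0 elsewhere, and Atp5g3 at 567 in neg 1, 273 and 62.9 in low 1 and 2, 37.2 in high 1 and 0 elsewhere. The c ring gene with the highest count was thus Atp5g3 in neg 1 and Atp5g1 in sub 1, and Atp5g2 has a copy, Gm10175, of 100% identity. Per kilobase of the longest annotated transcript Atp5h was the highest of complex V at 878, ahead of Atp5b at 857 and Atp5a1 at 778, as means over 12 libraries, and Atp5g1 the lowest above 0 at 13.2.

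**Figure D4:**
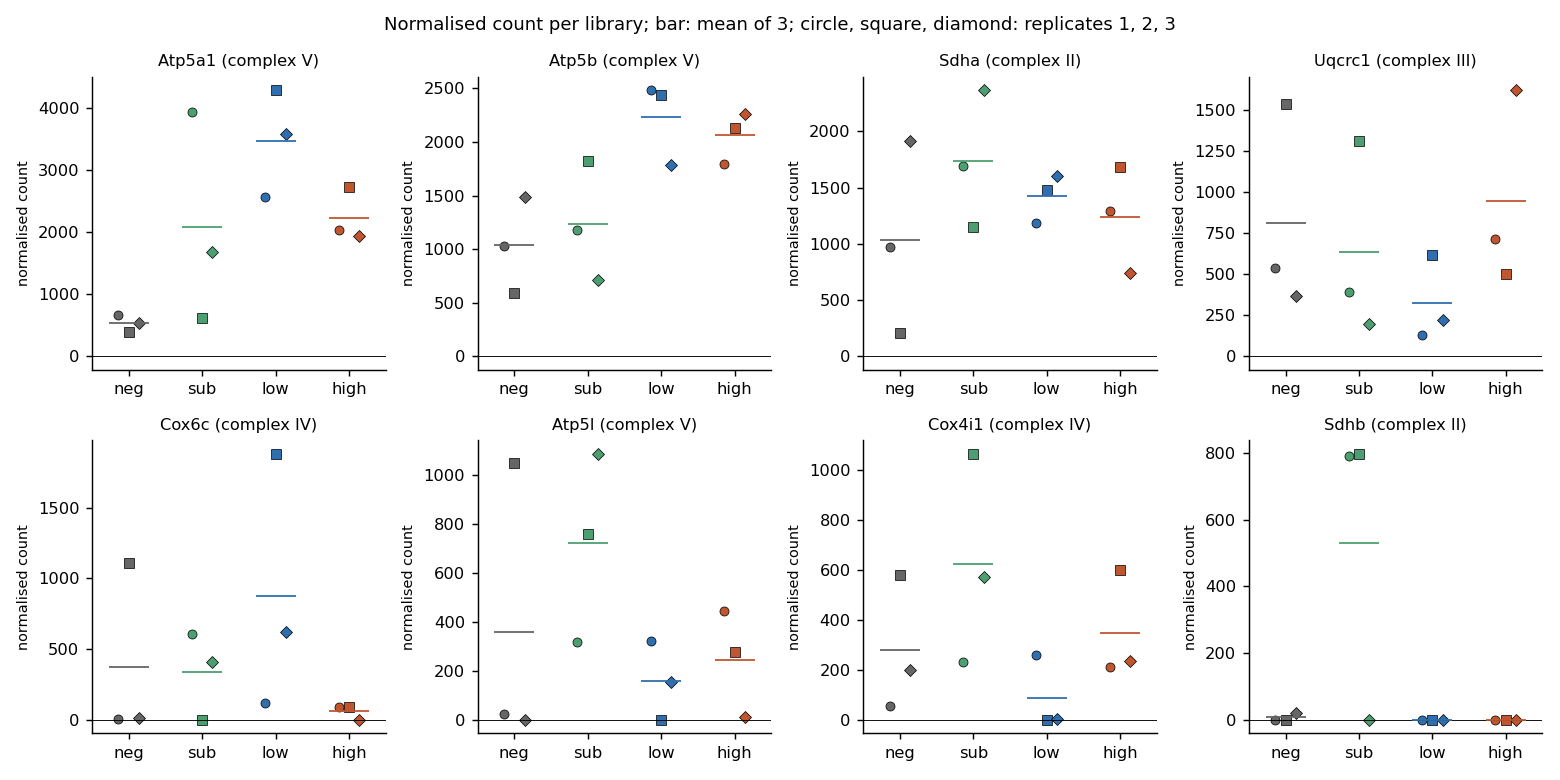
Normalised counts of 8 members in the 4 populations, 1 point per library with a bar at the mean of 3. Atp5a1 and Atp5b lie above neg in every low and high library, Sdhb is above 700 in 2 sub libraries and at or near 0 in the rest, and Cox6c and Atp5l spread widely within each population.

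Complex II, succinate dehydrogenase, links the TCA cycle to the respiratory chain. Its sum was 2288, 328 and 2165 in neg, 3428, 2672 and 2928 in sub, 2059, 1690.0 and 2227 in low and 1783, 1704 and 876 in high. All 3 sub libraries were above the other 9. The ratio of means was 1.89 ± 1.32 for sub over neg, 0.662 ± 0.125 for low over sub and 0.483 ± 0.178 for high over sub. The separation held per kilobase, with equal totals and without the assembly factors, though then by little for sub against neg, with a lowest sub sum of 1945.2 against a highest neg sum of 1936.5. No single member was clear of the other gates in sub. Sdha, the catalytic flavoprotein (chromosome 13, 74322254 to 74350280, minus strand), had 973, 205 and 1916 in neg, 1694, 1147 and 2363 in sub, 1185, 1481 and 1604 in low and 1288, 1681 and 743 in high, which overlap (sub against neg 1.19 ± 0.81, limma adjusted p = 0.703). Sdha gave 57.6% of the sub sum. Sdhb, the iron-sulfur subunit (chromosome 4, 140961203 to 140979193, plus strand), was at 790.0, 798 and 0 in sub, at 20.3 in neg 3 and at 0 in the other 8 libraries. Its difference was 4.95 ± 2.48 for sub against neg (limma adjusted p = 0.547) and -6.42 ± 2.48 for low against sub (limma adjusted p = 0.340), and such fitted values of a gene at 0 depend on the added count of 1. It was called only without sub 3, the sub library at 0, with limma adjusted p = 0.0476 for sub against neg, 0.0387 for low against sub and 0.0339 for high against sub, and by DESeq2 for low (0.0400) and high (0.0465) against sub. The membrane anchors were sparse: Sdhc had 201, 39.1 and 0 in neg, 0.737, 0 and 565 in sub, 82.4, 209 and 0 in low and 101, 0 and 47.4 in high, and Sdhd was at 273 in high 1 alone. Sdhaf2, the assembly factor that helps attach the flavin to Sdha, had 937, 83.2 and 229 in neg, 943, 727 and 0 in sub, 792, 0 and 624 in low and 120.3, 5.05 and 84.9 in high, so it was part of the sum in 2 of the sub libraries. Per kilobase Sdha was the highest of complex II at 468 and Sdhaf4 the lowest above 0 at 2.22. The stellate and mural marker sum was 30421 to 46423 in sub and 21818 to 42796 in neg. It was 635 to 3070 in low and 911 to 2184 in high. The endothelial, biliary and hepatocyte marker sums given above differed between sub and neg without overlap. The part of these marker differences in the complex II sum was not tested.

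Complex I has a core that oxidises NADH and many accessory subunits around it. Its sum was 5869.9, 2211 and 4140.4 in neg, 943, 3559.5 and 2861 in sub, 4379, 1983 and 3481 in low and 4981, 5048 and 2861 in high, and all comparisons overlapped. Among core subunits, Ndufs1 (chromosome 1, 63143596 to 63176833, minus strand), an iron-sulfur protein of the NADH module, had 582, 313 and 2.9 in neg, 0, 0 and 51.9 in sub, 321, 138 and 929 in low and 534, 243 and 64.5 in high. Every low and high library was above sub, and the difference of 6.53 ± 2.42 for low against sub did not pass (limma adjusted p = 0.308). Ndufs7, next to the ubiquinone site, had 736, 2.45 and 0 in neg, 0, 0 and 93.8 in sub, 142, 0 and 0 in low and 254, 422 and 554 in high, where all 3 libraries lay above sub and low (6.23 ± 3.00 for high against low, limma adjusted p = 1). Ndufv1, which binds NADH, had 0, 89.3 and 0 in neg, 0, 76.7 and 476 in sub, 40.8, 0 and 86.3 in low and 4.33, 176 and 41.7 in high. Ndufs8 was above 0 only in sub 1 and 3 at 0.737 and 107 and in low 1 at 37.1.

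Among the accessory subunits of complex I, Ndufs4 had the highest count of any member in neg 1. It had 1226, 0 and 0 in neg, 103, 806 and 0 in sub, 83.1, 0 and 0 in low and 785, 1156 and 49 in high, and high against low was 6.35 ± 3.22 (limma adjusted p = 1). Ndufb7 had 542, 33 and 50.2 in neg and 0 in all sub libraries, a difference of -6.62 ± 2.96 (limma adjusted p = 0.477). Ndufb9 had 0, 330.2 and 692 in neg and 0 in all sub libraries (-5.94 ± 2.74, limma adjusted p = 0.501). Both are membrane-arm subunits, and neither difference passed with limma or edgeR, while DESeq2 called both (DESeq2 adjusted p = 5.2e-11 and 1.4e-07). Ndufb11 had 104, 0 and 0 in neg, 0, 0 and 235 in sub, 250.1, 125 and 198 in low and 109.9, 195 and 509 in high, so low and high lay above neg. Ndufb5 was at 0 in sub, at 549.9, 681 and 0 in low, at 113 in neg 1 and at 191, 0 and 91.5 in high. For low against sub these 2 differed by 4.90 ± 2.70 and 6.17 ± 3.00, with limma adjusted p = 0.562 and 0.505. The edgeR test did not call Ndufb5. DESeq2 called it lower in sub than in neg, low and high (DESeq2 adjusted p = 1.6e-07, 5.8e-10 and 1.8e-08). Ndufa4, named for complex I and now placed in complex IV, had 26.9, 0 and 0 in neg, 0, 0 and 165 in sub, 529.9, 0 and 302 in low and 19, 24.3 and 0 in high. Its hypoxia-linked paralog Ndufa4l2 was at 226 in sub 3, 90.9 in high 1 and 0 elsewhere. Per kilobase the pseudogene Ndufa11b was the lowest of complex I above 0, at 1.27.

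Complex III holds 2 large core proteins, the Rieske iron-sulfur protein and small subunits. Its sum was 1810.2, 2097 and 368 in neg, 1343, 1528 and 672 in sub, 1090.2, 842 and 468 in low and 1542, 1179 and 1619.6 in high. High (1447 ± 235) lay above low (800.2 ± 313) in every library, a ratio of 1.81 ± 0.766, but not when members were divided by length. Uqcrc1, a core protein (chromosome 9, 108936633 to 108949623, plus strand) whose promoter with the NRF1 letters is printed near the start, had 540.3, 1535 and 368 in neg, 393, 1309 and 196 in sub, 129, 618 and 224 in low and 714, 501 and 1619.6 in high. In high 3 it was the whole complex III sum. The Rieske gene Uqcrfs1 had 846, 542 and 0 in neg, 906, 106 and 0 in sub, 244, 0 and 12.3 in low and 609, 317 and 0 in high. Uqcrc2, the other core protein, had 243, 0 and 0 in neg, 0, 0 and 76.8 in sub, 23, 0 and 0.822 in low and 219, 152 and 0 in high. All 3 genes overlapped between all gates. The hinge protein gene Uqcrh lay higher in low (99.4, 112 and 70.7) than in neg (16.6, 20.8 and 0). Per kilobase Uqcrc1 was the highest of complex III at 275 and Uqcr11 the lowest above 0 at 6.93.

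Complex IV, cytochrome c oxidase, has tissue isoforms of several subunits. Its sum was 602, 1809 and 779 in neg, 1408, 1477 and 2471 in sub, 1507, 3002 and 1337 in low and 1828, 1465 and 2115 in high, and all comparisons of these sums overlapped. Divided by the length of the longest annotated transcript, high (1631 to 4895 per kilobase) lay clear of neg (653 to 1230.0), and the ratio of means went from 1.70 to 3.24. It was 2.12 without high 3, and 2.38 without the short pseudogene Cox6c2, which was above 0 in that library alone. High still lay clear of neg in both. The length used for Cox6c is 3038 bases, against 738 for its longest protein-coding transcript, and Cox6c was at 1110 in neg 2. Sums by protein-coding length were not computed, so whether high stays clear of neg by that length was not tested. Cox4i1, the ubiquitous isoform of an early-assembling nuclear subunit (chromosome 8, 120668222 to 120674207, plus strand), had 55.3, 582 and 199 in neg, 231, 1067 and 571 in sub, 259.8, 0 and 0.822 in low and 211, 601 and 234 in high. Low was split, with 1 library at the level of the other gates and 2 at or near 0. The difference was -6.06 ± 2.12 for low against sub (limma adjusted p = 0.254) and 5.32 ± 2.12 for high against low (limma adjusted p = 1). Without low 1 it was called lower in low than in sub (limma adjusted p = 0.0255) and than in neg (0.0279). Emc8 on the other strand and Gm20388 on the same strand overlap it. The lung and hypoxia isoform Cox4i2 was at 0 in all 12 libraries.

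The other isoform pairs of complex IV were sparse apart from Cox7a2l. Cox6a1, the liver form, was at 0, 781 and 137 in low, at 109.9, 134 and 0 in high and at 0 in neg and sub, and the muscle form Cox6a2 was at 0 throughout. Cox6b1 was above 0 in 1 library of each gate (134 in neg 1, 549 in sub 3, 290.1 in low 3, 136 in high 1), and the testis form Cox6b2 had 35.4 in high 2 alone. Cox7a1, the muscle form, had 60.6 in high 1 alone, above its partner Cox7a2, which had 24.2 there and 1.99 in sub 3. Their relative Cox7a2l, a factor of supercomplexes that join complexes III and IV, had 409.7, 115 and 371 in neg, 375, 160.3 and 640.4 in sub, 373, 341 and 73.1 in low and 392, 583 and 0 in high. Cox8a had 295 in low 1 and 115 and 1018 in high 1 and 3, and Cox8b and Cox8c were at 0 throughout. In each of these sets the ubiquitous form was above 0 in more libraries than the tissue form. Cox5a was at 196 in sub 1 alone, and Cox5b had 86 in neg 3, 247 and 233 in sub 2 and 3, 189 in low 1 and 52.8 and 142 in high 1 and 3. Cox6c had 3.45, 1110.4 and 10.6 in neg, 606, 2.29 and 409 in sub, 119, 1880.3 and 619 in low and 93.5, 88.9 and 1.63 in high, so low lay above high (-4.20 ± 2.61 for high against low, limma adjusted p = 1). The pseudogene Cox6c2, 97.0% identical to Cox6c, had 534 in high 3, where Cox6c had 1.63, so reads may be split between them. Per kilobase Cox4i1 was the highest of complex IV at 437 and Cox7a2 the lowest above 0 at 3.32; Cox6c stood at 136 by its longest annotated transcript and at 558 by its longest protein-coding one.

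Across the 69 members that passed the filter, limma called 0 in sub against neg, 0 in low against sub, 0 in high against low, 1 in low against neg, 0 in high against neg and 0 in high against sub. Over all genes the same fit called 1.19%, 0.744%, 0%, 4.69%, 4.69% and 0.986% in the same order. At an unadjusted limma p under 0.05 there were 4, 4, 3, 4, 2 and 5 members (5.80%, 5.80%, 4.35%, 5.80%, 2.90% and 7.25%), beside 9.54%, 10.2%, 4.24%, 16.0%, 16.4% and 10.2% of all genes. For any difference between the 4 populations the limma F test called 0 members and 4.23% of all genes, and 2 members (2.90%) against 14.9% of all genes were under an unadjusted p of 0.05. The median log2 difference of members was 0, 0.20, 0.37, 0.37, 0.73 and 0.83, beside 0, 0, 0, 0, 0.13 and 0.20 over all genes. Members higher and lower numbered 33 and 31, 36 and 27, 37 and 28, 36 and 28, 42 and 23, and 41 and 26, beside 7162 and 7633, 7955 and 6906, 8023 and 6672, 7682 and 7405, 8372 and 6822, and 8591 and 6404 over all genes. The split for high against sub was 31 higher and 36 lower with edgeR and with DESeq2. It was 35 and 32 after quantile normalisation and 31 and 32 without high 1. Other splits turned too. Low against neg was 23 higher and 35 lower without low 1. Low against sub was 30 and 33 with edgeR and with DESeq2, and 27 and 30 without low 1. High against low was 28 and 33 without high 1, and sub against neg 30 and 34 without neg 2. The median SE of a member was 2.66, against 2.35 for all genes.

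**Figure D5:**
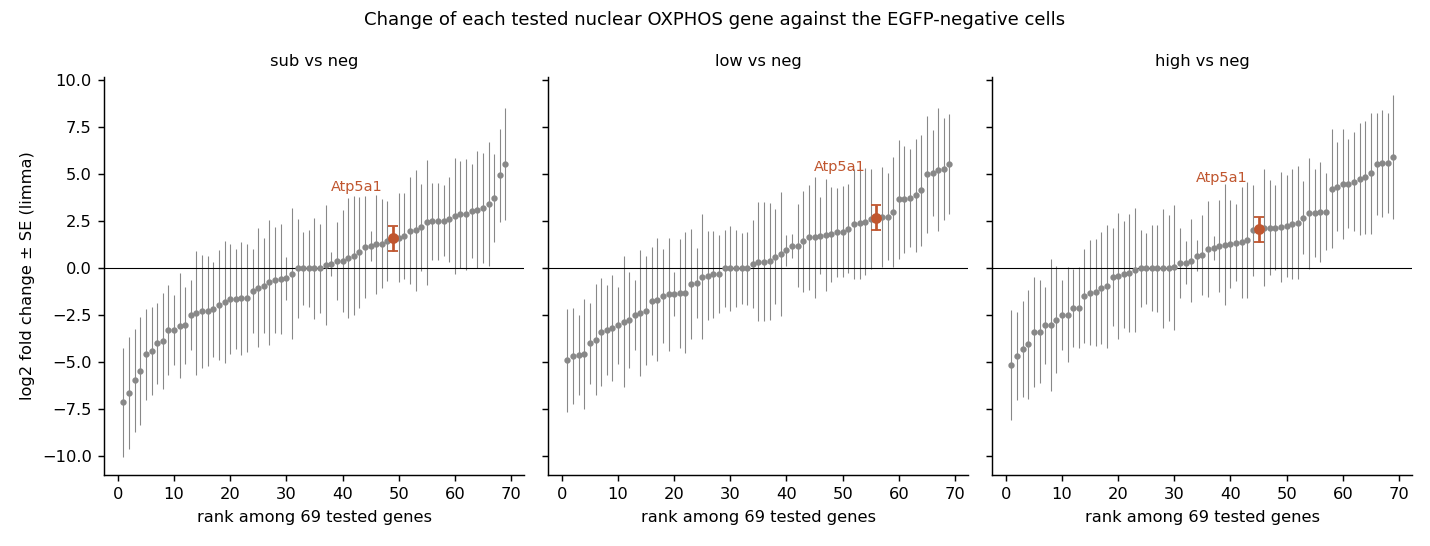
Log2 differences (of the count plus 1) ± SE of the 69 members that passed the filter for sub, low and high against neg, ranked within each panel, with Atp5a1 in orange. Most error bars cross 0, and Atp5a1 in low against neg, at 2.70 ± 0.68, is the only call of this limma fit.

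The members whose 3 libraries lay clear of the 3 others numbered 2 in sub against neg (Atp5mpl and Ndufb7 lower), 2 in low against sub (both higher, among them Ndufs1), 4 in high against low (Atp5h and Ndufs7 among those higher, Cox6c among those lower), 4 in low against neg (Atp5a1, Atp5b, Ndufb11 and Uqcrh higher), 5 in high against neg (Atp5a1, Atp5b, Ndufb11 and Ndufs3 higher, Ndufa9 lower) and 3 in high against sub (Atp5h, Ndufs1 and Ndufs7 higher). That is 2.90%, 2.90%, 5.80%, 5.80%, 7.25% and 4.35% of 69, where all genes gave 9.68%, 11.7%, 7.34%, 16.9%, 18.8% and 13.1%. Ndufa9, whose promoter holds the YY1 letters, had 316, 1018 and 451 in neg, 19.2, 191 and 413 in sub, 25.2, 0 and 348 in low and 161, 121 and 0 in high. Atp5mpl, a small subunit of complex V, had 52.5, 198 and 247 in neg and 0 in all sub libraries. The difference was -7.11 ± 2.90, with limma adjusted p = 0.403. The edgeR test did not call it, while DESeq2 did (DESeq2 adjusted p = 1.6e-10).

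Count tests on the recovered reads of all 12 libraries gave other numbers. The quasi-likelihood test of edgeR called 0, 0, 0, 1, 0 and 0 members in the same 6 comparisons, again Atp5a1 (edgeR adjusted p = 0.0266), and 1.28%, 1.11%, 0.211%, 3.73%, 3.84% and 1.41% of all genes. DESeq2 called 11, 8, 1, 7, 8 and 9 members and 10.5%, 9.88%, 4.01%, 14.6%, 14% and 9.21% of all genes. Of its 44 calls, on 16 members, 40 had a population at 0 in all its libraries, and 1 was also made by edgeR.

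The pathway around the members was described from lists. Of 41 assembly factors 33 passed the filter, and none was called in the 6 limma comparisons. The same held for 16 enzymes of pyruvate dehydrogenase and the TCA cycle, 12 carriers and porins, 15 glycolytic enzymes, 64 of 78 mitochondrial ribosomal proteins and 6 of 8 listed subunits and electron carriers that the symbol rule misses. Over the 6 comparisons, an unadjusted limma p under 0.05 was reached 9 times in 198 for assembly factors, 8 in 96 for TCA enzymes, 11 in 72 for carriers, 9 in 90 for glycolysis, 15 in 384 for mitochondrial ribosomal proteins and 4 in 36 for the missed subunits. Over all genes this was 11.1% of cases. The edgeR test called 0 in each of these lists and 1.93% over all genes. DESeq2 called 20, 2, 6, 3, 51 and 4 in the same order, or 10.1%, 2.08%, 8.33%, 3.33%, 13.3% and 11.1%, beside 10.4% over all genes. TCA enzymes stood higher in low and in high than in neg in 15 of 16 genes each, by medians of 2.24 and 2.39 beside 0 and 0.13 over all genes; both share the neg libraries. Mitochondrial ribosomal proteins were higher in 41 genes and lower in 17 for low against neg and higher in 41 and lower in 18 for high against neg, by medians of 1.65 and 1.39. The biliary and hepatocyte marker sums given above were also higher in low and high than in neg, and their part was not tested. The summed normalised counts of TCA enzymes were 2440 to 7516 in neg, 7151 to 7842 in sub, 7833 to 11577 in low and 6757 to 8178 in high.

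The 13 mitochondrially encoded subunits, which join nuclear members in complexes I, III, IV and V, had calls in 3 comparisons. Limma called 3 of 12 that passed higher in sub than in neg (mt-Nd5, mt-Cytb and mt-Co1), 4 higher in low than in neg (with mt-Nd6) and 5 higher in high than in neg (with mt-Atp6), and 0 in the comparisons among the fluorescent gates. Of all genes 1.19%, 4.69% and 4.69% were called for sub, low and high against neg. Over the 6 comparisons limma made 12 such calls (16.7% of cases, 2.05% over all genes), edgeR 9 (12.5%, 1.93% over all genes) and DESeq2 9 (12.5%, 10.4% over all genes). These values were not tested against those of the nuclear members. Their sums were 80112 to 110512 in neg, 133516 to 147607 in sub, 161345 to 173359 in low and 158635 to 199476 in high. In each library this sum was several times that of all 92 nuclear members. The mitochondrial ribosomal RNAs lay in the same order against neg: mt-Rnr2 had 155118 to 211914 in neg and 399061 to 511496 over the fluorescent gates, and mt-Rnr1 had 69913 to 86904 and 125836 to 154010. Their part in the difference was not tested. The biliary and hepatocyte marker sums given above were also higher in each fluorescent gate than in neg, and the endothelial sums lower. The part of these markers was not tested either.

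Of 19 regulators of mitochondrial biogenesis 16 passed the filter. Limma called 2 of them in low against neg and 1 in high against neg, where it called 4.69% of all genes in each. Ppargc1a, the coactivator that drives OXPHOS genes and is induced by fasting in liver (chromosome 5, 51454250 to 51567726, minus strand), was at 0 in all 3 neg libraries, at 0, 0 and 1283 in sub, at 586, 3347 and 1003 in low and at 758, 570.0 and 541 in high. It rose in low and in high against neg (limma adjusted p = 0.0261 and 0.0458). Against 3 reads per library, 3.67 units at most, its mean was at least 448-fold higher in low and at least 170-fold higher in high. Without low 2 the low value was at least 217-fold. The calls held in 14 and 12 of 24 alternatives. Both were lost when any 1 library of neg, low or high was left out, with limma adjusted p of 0.0602 to 0.126 for low and 0.0780 to 0.170 for high. With the replicate number as a block, the limma call for high against neg was lost as well. Polg2, the accessory subunit of the mitochondrial DNA polymerase (chromosome 11, 106768253 to 106779537, minus strand), had 2138, 5507 and 3729 in neg, 663, 539 and 1527 in sub, 177, 563 and 515 in low and 600, 283 and 794 in high. It fell in low against neg by 3.24 ± 0.88 (limma adjusted p = 0.0388), a call that held in 17 of 24 alternatives. It was lost without neg 2, neg 3, low 1 or low 3 (limma adjusted p = 0.0876, 0.0702, 0.0792 and 0.0522) and in a fit of the 2 populations alone (0.102). The edgeR test did not call it on 12 libraries (adjusted p = 0.0622) or on 10 (0.0525), and Milr1 overlaps it on the other strand. The biliary, hepatocyte, endothelial and stellate marker sums differ between the same populations, and their part in these differences was not tested.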

How the data were processed

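Per the labels' protocols, RNA of sorted cells was extracted with the RNAqueous Micro kit, treated with DNase for 30 min and made into libraries by the SMARTer Pico v2 chemistry for stranded total RNA. The submitters' processing notes name Salmon, DESeq2 1.26.0 and mm10, without roles; the annotation and the use of strand are not given in the sources used here. The file deposited by the authors holds normalised counts, used here as a signal value for each symbol in each library; what they divided by is not stated, and the 100% of values that are whole multiples of a step per column was found here. Libraries were grouped by title.

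Counts were tested as log2 of the value plus 1 with limma 3.58.1 (R 4.3.3), with population as the only term, on all 12 libraries and 16128 genes with a mean of at least 10, for 6 comparisons with Benjamini-Hochberg adjustment at 0.05. Whole steps, called reads here though they may be Salmon estimates rounded before scaling, went to edgeR 4.0.16 and DESeq2 1.42.0; in sub 3 and high 2 a read was worth 0.997 and 1.01 units, so edgeR was also run on the other 10 libraries. The labels mention no molecular identifiers, so floors of 3 reads cover counting error only. Positions and lengths came from GENCODE M21 (GRCm38), which matched all 92 members, 2 of them through RefSeq synonyms. Near-identical copies were found with blastn 2.17.0 at 95% identity over 80% of the transcript. The fits were tested on simulated data. The members and lists were chosen with earlier results of these data known. Named are members past the threshold, isoform sets, some of the core subunits, and the highest and lowest per kilobase in each complex. The 3 largest rises and falls in sub against neg, low against sub and high against low are named among members whose mean reached 100. Left-out libraries, other scalings, filters and added counts were alternatives. The values of 1 member are not reported here on their own.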

Additional observations from a re-analysis of the deposited data

How the results depend on the processing

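Of 144 alternative counts of members called, 126 were as in the limma fit of all libraries. Leaving out 1 library gave 0 to 1 members in sub against neg, low against sub, low against neg, high against neg and high against sub, and 0 in high against low. The 1 was Sdhb without sub 3 in the comparisons with sub, Cox4i1 without low 1 in low against sub, and Atp5a1 without sub 1 or sub 2 in high against neg. In low against neg it was Atp5a1 without any 1 sub or high library and Cox4i1 without low 1. A fit of the 2 populations alone gave 1 member, Atp5a1, in high against neg. DESeq2 gave 11, 8, 1, 7, 8 and 9 members in sub against neg, low against sub, high against low, low against neg, high against neg and high against sub, against 0, 0, 0, 1, 0 and 0 with limma; 40 of these 44 calls had a population at 0. Over all genes DESeq2 called 1698, 1593, 646, 2352, 2257 and 1485, edgeR 207, 179, 34, 602, 619 and 227, and limma 192, 120, 0, 757, 757 and 159; for high against low limma had 684 at an unadjusted p under 0.05.

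Replicate numbers in the titles run in step with the tags in the descriptions, and replicate 1 had the most genes above 0 in each population. Deviations from the population means correlated at -0.0161 to 0.0266 for the same number and at -0.0447 to 0.0234 for different numbers. Between libraries of replicate 1 they correlated at 0.0118 to 0.0266. The ranges overlap, and correlations this small, in values with many zeros, cannot show whether the libraries are paired. With the replicate number as a block limma called 0, 0, 0, 1, 0 and 0 members, with Atp5a1 at adjusted p = 0.0322 in low against neg; Ppargc1a in high against neg was at 0.0509. The median differences of members ranged over the alternatives from -0.27 to 0.65, 0 to 0.94, 0 to 1.32, -0.32 to 1.17, 0 to 1.31 and -0.13 to 1.55 in the same order. Of 282 alternative ratios of complex sums 9 moved past the spread: per kilobase, complex II low over sub was 0.522, complex IV high over low 1.71, over neg 3.24 and over sub 1.59, complex V sub over neg 0.954 and low over neg 1.31, and without Atp5a1 complex V sub, low and high over neg were 0.955, 1.06 and 1.05. The median SE of 2.66 for members limits what size of difference 3 libraries a population can show.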
